A study of Arabidopsis thaliana with 36 samples.

Results

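Leaves of Arabidopsis thaliana seedlings grown on the International Space Station were compared with leaves of seedlings grown in a ground control chamber. The comparison used the 5 arrays labelled as flight shoots and the 5 labelled as ground control shoots, 10 of the 36 arrays of the series. The study cut the leaves at the base of each petiole. By that description the labelled shoots were leaf tissue without hypocotyl or root. All plants were 12 days old, had germinated in the light on vertical plates of solid medium in the same type of growth hardware, and were fixed in RNAlater. The flight plants grew on orbit. The ground control plants grew in a simulator chamber that replayed the light, temperature, carbon dioxide and humidity of the station after a delay of 48 hours. Per the study, volatiles were scrubbed alike in both units, and handling and harvest were replicated. Environments other than gravity were matched only as far as the chamber could follow them. Both groups held the same mix of plants, 60% Wassilewskija and 40% Columbia-0, with 3 GFP reporter lines driven by the alcohol dehydrogenase promoter, the DR5 auxin response element or the 35S promoter, all controls included. Each array held RNA of a pool of plants, and each group had 1 array from plate 2, 2 from plate 4 and 2 from plate 6. A group therefore rested on 3 culture plates, and p-values measured the spread between pools of which some shared a plate. Values for single arrays are given in the order plate 2, plate 4, plate 4, plate 6, plate 6.

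Young leaves are the photosynthetic organ of the seedling, and their growth is set by cytokinin, auxin and sugar supply. Cytokinin signals through type-B response regulators, which activate transcription, and type-A response regulators, which are induced by the hormone and dampen its signal. KISS ME DEADLY (KMD) proteins are F-box proteins that mark type-B response regulators and phenylalanine ammonia-lyases for degradation. Leaves also respond within minutes to touch, wounding and handling, through calcium sensors, ethylene response factors and jasmonate, and these transcripts are short-lived.

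Signals were values per probe set from MAS5 on a linear scale, and the trimmed mean of the arrays was scaled to one target, so their median signals lay between 158 and 188. A mean signal of at least 100 over the 10 arrays was reached by 13606 of the 22746 probe sets tested. The ground control array of plate 2 stood apart from the other 9. Its 25th percentile was 68.9, against 31.1 to 45.5 on the others, and its Spearman correlation with them was 0.929 to 0.939, against 0.944 to 0.969 among them. Probe sets without a nuclear locus, of which 74 carry mitochondrial and 47 plastid gene names, were also high there. The median signal of all 155 was 2152 on that array, 1082 and 1273 on the ground control arrays of plate 4, 906 on the first flight array of plate 4 and 244 to 351 on the other 6. Of the 155, 137 were highest on the ground control array of plate 2, against 5589 of all 22746 probe sets (24.6%) and 1602 of the 13606 at a mean signal of at least 100 (11.8%). The plastid gene rpoB showed the range, with flight signals of 59.5, 539.9, 37.9, 49.6 and 19.6 and ground control signals of 5149, 275.5, 562, 65.7 and 36.2. What set this array apart was not tested, and counts are given without it below. The summed signal of 13 Calvin cycle genes was 136200 to 190000 in leaves and 8470 to 10980 in roots. Of 12 root markers, 11 had a mean signal under 100 in leaves, and their summed signal was 255 to 462 in flight and 233 to 587 in ground control. The other, PYK10, a beta-glucosidase of root endoplasmic reticulum bodies, had a mean of 1992 in flight and 1313 in ground control leaves and of 30690 in roots. Its leaf signals overlapped between groups, at a log2 difference of 0.62 (standard error 0.27, adjusted p = 0.298 with plate as a block), but were higher in flight on each plate, by 0.95, 0.70 and 0.36. Its part in the results was not tested. All 11 seed storage and maturation markers were under 100. The meristem genes STM and KNAT1 were present at means of 476 and 366, while WUS and CLV3 were at 8.85 and 4.75. Whether the leaf samples held shoot apex was not tested. In tissue RNA, fewer cells of a type and less RNA per cell cannot be told apart.

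Of the 22746 probe sets, 0 passed an adjusted p of 0.05 (0.0%) in the comparison that left plate out, where the smallest adjusted p was 0.216 and 1731 had an unadjusted p under 0.05. At the study's own thresholds, an unadjusted p under 0.01 and a change of at least 1.9-fold, 49 probe sets with a mean signal of at least 100 were higher in flight (0.36%) and 9 were lower (0.0661%). These counts used limma's moderated test, and the study used Student's t-test with a filter on absent calls. With a t-test on the same values, and without that filter, 38 were higher and 7 lower at that signal. All 58 from limma had the same direction on each of the 3 plates, which 26.9% of the 13606 probe sets had. The 58 had been selected on these same arrays, so their agreement between plates was no independent evidence. The 49 and 9 became 44 and 9 without the ground control array of plate 2, with 37 and 6 of the probe sets in common, and 25 and 8 without the first ground control array of plate 4, with 24 of the 49 in common. They were 32 and 5 without the second ground control array of plate 4 and 75 and 15 without the first of plate 6. Groups did not overlap for 106 probe sets that were higher (0.779%) and for 106 that were lower (0.779%). An unadjusted p under 0.05 was reached by 417 higher (3.06%) and 430 lower (3.16%), and these 2 shares are the background for the gene groups below. The median log2 difference of the 13606 probe sets was -0.01.

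With plate as a block, the 13606 probe sets alone in the fit and limma's trend and robust settings, 54 passed an adjusted p of 0.05. Of these, 46 were higher in flight (0.338%) and 8 were lower (0.0588%). All 54 kept 1 direction on the 3 plates, which again followed in part from selection on the same arrays. The count was 14 with the default settings and 1 without the block, so it rested on both choices. This fit counted the 2 pools of a plate as replicates. With plate means as samples and the same settings, 0 passed, the smallest adjusted p was 0.283, and 758 had an unadjusted p under 0.05. With plate within environment as a random block in place of the fixed one, 1 passed, SIAR1, with an adjusted p of 0.026. All 54 had the same direction in both of these fits. That outcome was fixed in advance, since both used the same arrays and each of the 54 already had 1 direction on the 3 plates. Leaving out 1 array gave 20 to 91. The count was 20 and 24 without either flight array of plate 4, 24 without the second flight array of plate 6, 21 without the first ground control array of plate 4, 79 without the first and 23 without the second ground control array of plate 6, and 91 without plate 2, with 38 of the 54 in common. Of the 54, 15 passed whichever single array was left out, namely KMD2, KMD3, KMD4, MYB4, MYB7, RAV1, ANAC102, DJC66, J11, CRK29, AT3G07350, AT1G21000 and AT5G25450, which were higher, and SIAR1 and LTP6, which were lower. An adjusted p given for a gene below is from this fit with plate as a block, and a log2 difference is flight minus ground control with its standard error from the fit without it.

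**Figure D1:**
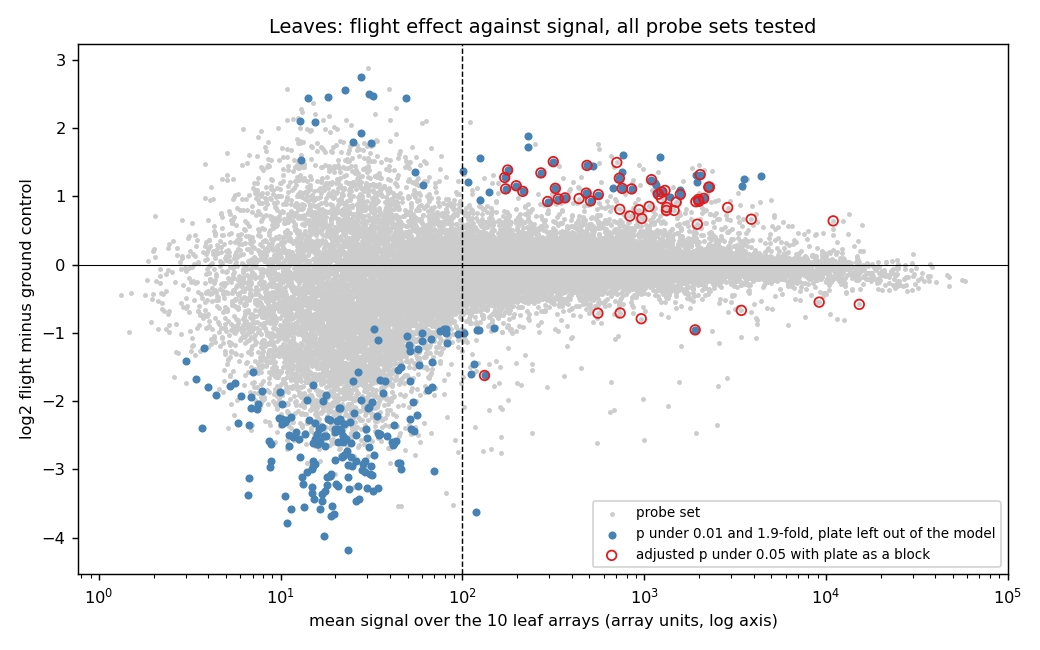
The log2 difference between flight and ground control leaves (vertical axis) is plotted against the mean signal over the 10 arrays (horizontal log axis) for 22746 probe sets. Blue points passed an unadjusted p of 0.01 and 1.9-fold, red rings passed an adjusted p of 0.05 with plate as a block, and the dashed line is a mean signal of 100, left of which 182 probe sets passed as lower and 15 as higher.

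All 4 KMD genes were higher in flight, and each was higher on all 5 flight arrays than on any ground control array. KMD1 (AT1G80440) had signals of 1905, 1279, 1882, 1359 and 1461 in flight and 778, 432, 471, 847 and 1189 in ground control, a log2 difference of 1.17 (standard error 0.29). KMD2 (AT1G15670) had 1755, 1201, 1246, 1696 and 1743 in flight and 1025, 421, 618, 746 and 519 in ground control, a difference of 1.25 (standard error 0.25) with an adjusted p of 0.00281. Both ground control arrays of plate 4 were low for KMD1, while the ground control array of plate 2 was the highest of its group for KMD2. KMD3 (AT2G44130) had 1529, 1020, 784, 849.5 and 1000 in flight and 725, 406, 409, 373 and 482 in ground control, a difference of 1.12 (standard error 0.24), adjusted p = 0.00197. KMD4 (AT3G59940) had 2460, 1216, 1401, 1711 and 1732 in flight and 909, 941, 759, 645 and 742 in ground control, a difference of 1.06 (standard error 0.20), adjusted p = 0.00562. For both genes the flight array of plate 2 was the highest of all 10. Within plates the difference of KMD3 was 1.08, 1.13 and 1.12 on plates 2, 4 and 6, the most even of the family. That of KMD1 was 1.29, 1.78 and 0.49, and the adjusted p of KMD1 was 0.0661. All 4 passed the study's thresholds. KMD2, KMD3 and KMD4 had been named for their small p, and the family was put together after these values had been seen. KMD1 was then named as the remaining member, also after its values had been seen. The 4 genes together were therefore no independent test of the family.

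**Figure D2:**
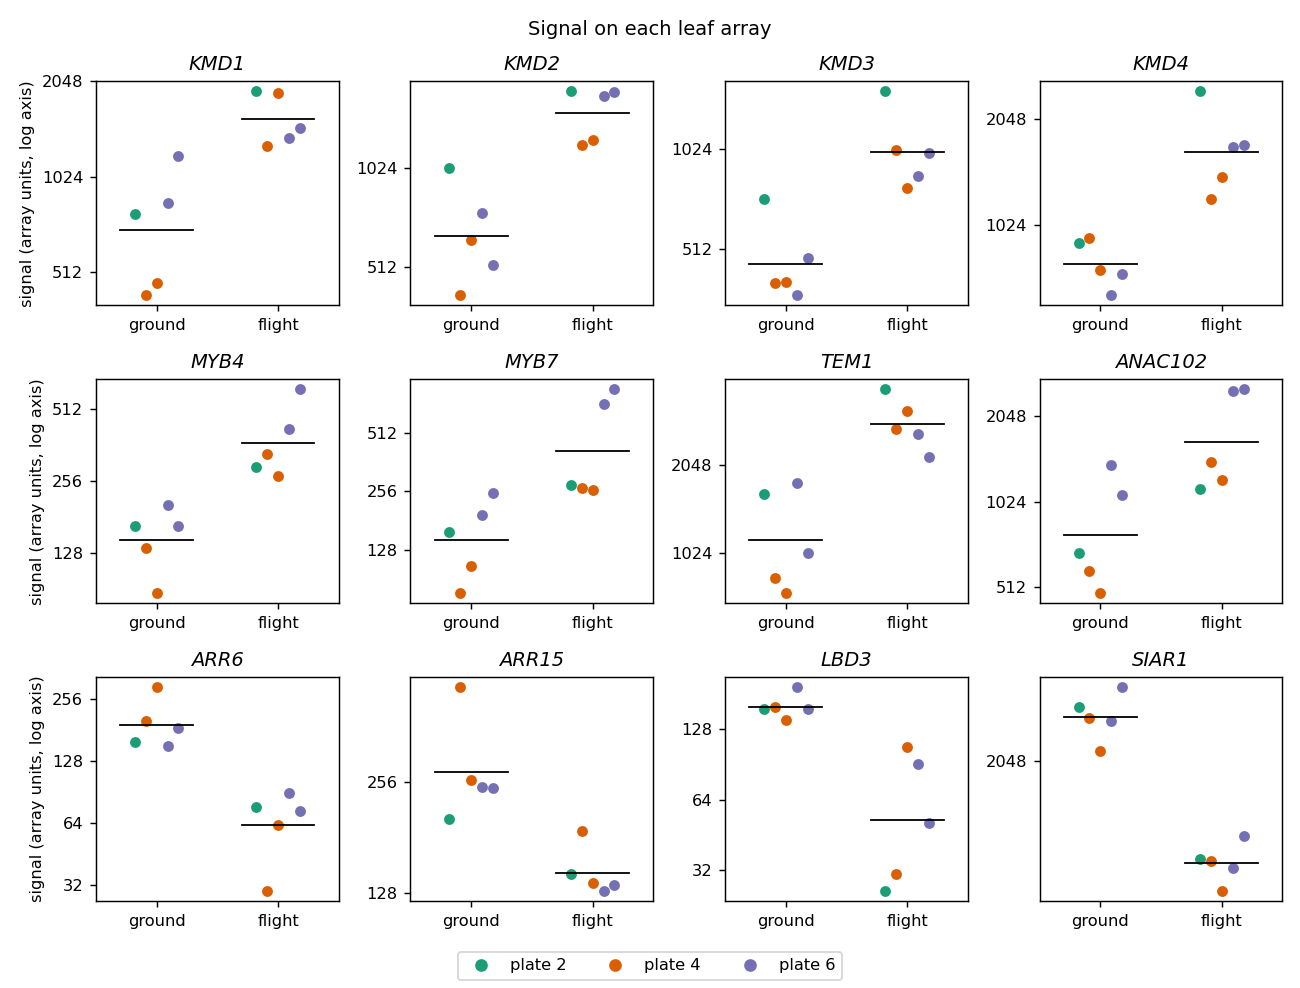
Signal on each leaf array (log axis, array units) for 12 genes, with 1 point per array, coloured by plate, and a line at the geometric mean of the 5 arrays. The 4 KMD genes, MYB4, MYB7 and TEM1 were higher on every flight array, ARR6, ARR15, LBD3 and SIAR1 lower on every flight array, and ANAC102 overlapped between groups but was higher in flight on each plate.

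Of 9 type-A response regulators on the list, ARR6 was the 1 that fell with plate as a block. Of the 9, 7 had a mean signal of at least 100 and all 7 had a negative difference, from -1.62 to -0.03, with a median of -0.42 (-0.01 over all probe sets at that signal), and 3 had an unadjusted p under 0.05, both with and without the ground control array of plate 2. ARR6 (AT5G62920) had signals of 76.4, 29.9, 62.8, 90.2 and 73.5 in flight and 158, 200.1, 294, 152 and 186 in ground control, a difference of -1.62 (standard error 0.31), adjusted p = 0.0432. ARR15 (AT1G74890) had 144, 189, 136, 129.5 and 134 in flight and 204, 462, 259.6, 248 and 246 in ground control, a difference of -0.91 (standard error 0.22), adjusted p = 0.0702. Neither gene overlapped between groups, and of the 2 only ARR6 passed the adjusted threshold with plate as a block. ARR6 was at or below a signal of 90.2 on all flight arrays, the range in which MAS5 values spread most. ARR4 differed by -0.42 (standard error 0.17), ARR7 by -0.62 (standard error 0.28) and ARR9 by -0.39 (standard error 0.18), and their groups overlapped. On plate 2 the difference was 0.03 for ARR4 and 0.05 for ARR9, and 3 of the 7 genes kept 1 direction on the 3 plates. The mean log2 signal of the 7 genes, relative to the 10 arrays, was -0.25, -0.18, -0.26, -0.31 and -0.49 on the flight arrays and 0.08, 0.46, 0.32, 0.33 and 0.31 on the ground control arrays, so it was lower in flight on every plate. LBD3 (AT1G16530), also called ASL9, a LOB-domain gene known to respond to cytokinin, had signals of 26.0, 30.7, 107, 90.7 and 51.0 in flight and 156, 159, 140.4, 194 and 156 in ground control, a difference of -1.61 (standard error 0.39) with an adjusted p of 0.0751. LBD3 was on a list of 10 genes drawn from the study's leaf results on these arrays, so the directions of its members were no independent evidence. Of these 10, 3 had a mean signal of at least 100, LBD3, AT5G52860 and GDPD1, a phosphate starvation gene with a positive difference of 1.44 (standard error 0.38). AT5G52860 (ABCG8), a transporter gene, also had groups without overlap, with 134, 83.2, 99.8, 79.4 and 85.5 in flight and 153, 136, 224, 191 and 190.3 in ground control, adjusted p = 0.131. The type-B response regulators, the known targets of KMD proteins, had no shared direction at the transcript level. Of 7, 4 had a mean signal of at least 100, with differences between -0.48 and 0.35. ARR10 was at -0.48 (standard error 0.21) with an adjusted p of 0.391, and ARR14 at 0.35 (standard error 0.14) with an adjusted p of 0.404.

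The phenylpropanoid pathway makes lignin precursors, flavonoids and anthocyanins from phenylalanine, and MYB proteins of the MYB4 subgroup repress its genes. MYB4 (AT4G38620) had signals of 293, 333, 269.8, 425 and 623 in flight and 167, 135, 86.8, 203 and 166 in ground control, a difference of 1.35 (standard error 0.29), adjusted p = 0.00688. MYB7 (AT2G16720), its close homologue, had 277, 267, 259.6, 716 and 856 in flight and 158, 77.0, 107, 193 and 251 in ground control, and its adjusted p was 0.00286. Both were higher on every flight array, and MYB7 was highest on plate 6 in each environment. Within plates MYB7 differed by 0.81, 1.54 and 1.83. All 5 repressors on the list, MYB3, MYB4, MYB7, MYB32 and MYBL2, had a positive difference, with a median of 0.50, and MYB4 and MYB7 were the 2 that passed the adjusted threshold. Of the 5, 3 kept 1 direction on the 3 plates. MYB4, MYB7 and MYB32 are genes the study called as changed in organs of these plants, so the shared direction was not fully independent evidence. Of 18 phenylpropanoid and flavonoid enzymes and regulators at a mean signal of at least 100, 14 were lower, with a median of -0.42, and 2 had an unadjusted p under 0.05, 1 without the ground control array of plate 2. None of the 18 passed the adjusted threshold. TT7, the flavonoid 3'-hydroxylase, had signals of 91.8, 157, 77.2, 111 and 90.9 in flight and 179.7, 287, 193, 146 and 125 in ground control, which is -0.80 (standard error 0.26) on the log2 scale with an adjusted p of 0.217. The median difference of the 18 genes was -0.90 on plate 2, -0.36 on plate 4 and -0.16 on plate 6. At the entry of the pathway, PAL1 differed by -0.14 (standard error 0.19) and PAL2 by -0.17 (standard error 0.22), with adjusted p of 0.802 and 0.788.

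Other regulators were higher on all 3 plates. TEMPRANILLO1 (TEM1, AT1G25560), a repressor of flowering from the RAV family, had signals of 3716, 2713, 3131, 2611 and 2168 in flight and 1627, 839.9, 742, 1774 and 1024 in ground control, a difference of 1.32 (standard error 0.27), adjusted p = 0.0274. RAV1 (AT1G13260), a growth-restraining member of the same family, had 1822, 1760, 1792, 2497 and 2671 in flight and 1158, 610.2, 909, 1369 and 1226 in ground control, adjusted p = 0.00356. The groups of both genes did not overlap. TEM2 (AT1G68840) had 6166, 5870, 7186, 5855 and 4831 in flight and 4015, 1486, 1118, 4368 and 2846 in ground control, also without overlap, but its difference was 2.33 on plate 4 and 0.62 and 0.59 on plates 2 and 6, and its adjusted p was 0.24. EDF3, the remaining member of the family list, differed by 0.41 (standard error 0.31) with an adjusted p of 0.52, and its groups overlapped. TEM2 and EDF3 were added after their values had been seen. The MYB gene MYB73 (AT4G37260) had 2231, 2640, 2940, 2763 and 2444 in flight and 1530, 1065, 1028, 1845 and 1376 in ground control, adjusted p = 0.0142. MYB73 did not overlap either, and its difference of 0.96 (standard error 0.18) was about that of RAV1, 1.03. Among NAC factors, which act in stress, senescence and hormone responses, ANAC055 (AT3G15500) differed by 1.28 (standard error 0.28), ANAC102 (AT5G63790) by 1.09 (standard error 0.36) and the senescence regulator NAP (AT1G69490) by 0.96 (standard error 0.22). ANAC102 had signals of 1133, 1417, 1221, 2499 and 2545 in flight and 677, 586, 488, 1373 and 1082 in ground control. Plate 6 was high in both environments, so the groups overlapped, and ANAC102 passed with plate as a block (adjusted p = 0.00197) while its unadjusted p without the block was 0.0131.

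Other single genes that were higher included 3 that encode DnaJ-domain proteins, DJC66, J11 and J8, and 2 receptor-like kinase genes, CRK4 and CRK29. Their families were not counted. DJC66 (AT3G13310), which encodes a DnaJ-domain protein, had signals of 2336, 3463, 2180, 4106 and 3751 in flight and 1457, 1128, 1391, 1574 and 1466 in ground control, which is 1.14 (standard error 0.20) on the log2 scale, adjusted p = 0.00355. J11 and J8, chloroplast DnaJ-domain proteins, differed by 0.84 (standard error 0.28) and 0.67 (standard error 0.24), with adjusted p of 0.00607 and 0.0453. All 3 were higher in flight on each plate, and of the 3 only DJC66 had groups without overlap. ANAC102, J8 and J11 were named after their values had been seen. CRK4 (AT3G45860) had signals of 472, 426, 287, 389.8 and 360.2 in flight and 175, 189.9, 235, 204 and 206 in ground control, adjusted p = 0.0306. CRK29 (AT4G21410) had 464, 428, 408, 546 and 569 in flight and 262, 201, 168, 363 and 261 in ground control, adjusted p = 0.00908. Both receptor kinase genes were higher on every flight array. AT3G07350, which the annotation leaves without a name, had the smallest adjusted p of all, 0.00119, with signals of 1576, 721, 776, 978 and 1137 in flight and 502, 306, 341, 453 and 512 in ground control. AT2G25200 and AT3G57120 differed by 1.12 (standard error 0.24) and 0.94 (standard error 0.20), adjusted p 0.032 and 0.137. The differences of 3 further genes were positive, those of ARL (AT2G44080), which promotes cell expansion, at 1.26 (standard error 0.29), BEE3 (AT1G73830), a brassinosteroid-induced bHLH factor, at 0.92 (standard error 0.20), and LNG2 (AT3G02170), a LONGIFOLIA gene that promotes elongation of leaf cells, at 0.68 (standard error 0.15). Groups of these 3 genes did not overlap, and the adjusted p was 0.0641 for ARL, 0.0472 for BEE3 and 0.0472 for LNG2. BEE3 and LNG2 were chosen after their values had been seen.

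The study's thresholds called 9 lower against 49 higher probe sets at a mean signal of at least 100, while at an unadjusted p under 0.05 there were 430 lower and 417 higher. SIAR1 (AT1G44800), an amino acid transporter gene of the UMAMIT family, had signals of 1316, 1306, 1138, 1263 and 1462 in flight and 2622, 2498, 2148, 2457 and 2866 in ground control. The groups were far from overlapping, and the difference was -0.99, -0.93 and -0.97 on plates 2, 4 and 6, adjusted p = 0.00197. UMAMIT14 (AT2G39510), an amino acid exporter of the same family, had signals of 116, 104, 107, 75.6 and 72.9 in flight and 228, 144, 146, 114 and 189.5 in ground control, a difference of -0.77 (standard error 0.22) with an adjusted p of 0.177. Of 12 amino acid transporters at a mean signal of at least 100, SIAR1 and UMAMIT14 were the 2 with an unadjusted p under 0.05, and the median of the 12 was -0.18. The lipid transfer protein gene LTP6 (AT3G08770) had 6681, 9209, 9514, 6009 and 5879 in flight and 9363, 13960, 13620, 9053 and 8570 in ground control. Plate 4 was high in both environments, so the groups overlapped, but the difference was -0.49, -0.56 and -0.57 on the 3 plates, adjusted p = 0.00908. Among expansins, proteins that loosen the cell wall during growth, 13 of 17 at a mean signal of at least 100 were lower, with a median of -0.24, and 6 had an unadjusted p under 0.05, 3 without the ground control array of plate 2. EXPA5, EXPB3, EXPA20, EXPA10, EXPA15 and EXPA4 were the 6. EXPA5 (AT3G29030) was the 1 that passed with plate as a block (adjusted p = 0.0285), with signals of 477, 724, 1125, 648 and 622 in flight and 956, 1539, 1204, 1147 and 1195 in ground control, lower in flight on each plate. EXPA15 (AT2G03090) had signals of 246, 245, 302, 414 and 316 in flight and 562, 635, 604, 328 and 325 in ground control, and was lower in flight on plates 2 and 4 but not on plate 6.

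The other lower genes that the rule named had mean signals between 102.5 and 148.4, and 1 further lower probe set, with a difference of -3.62, matched several genes. TOP3A (AT5G63920), a DNA topoisomerase gene, had 102, 90.6, 65.3, 99.3 and 94.7 in flight and 176, 155, 161, 161 and 145 in ground control, a difference of -0.84 (standard error 0.14), adjusted p = 0.113. LSH9 (AT4G18610), of a family linked to light-dependent hypocotyl growth, had 80.8, 110.5, 61.0, 84.4 and 92.0 in flight and 143, 165, 144, 187 and 140.2 in ground control, adjusted p = 0.137. Neither gene overlapped between groups, and both changed by less than 1.9-fold. AT1G64380 had 33.7, 63.2, 40.4, 85.2 and 100.5 in flight and 196, 188, 128, 121 and 199.9 in ground control, without overlap, adjusted p = 0.0672. AT1G75090 overlapped between groups but was lower in flight on each plate, by log2 differences of -1.01, -0.98 and -1.03. TPR12, AT5G39220 and SAUR7 differed by -0.96, -0.96 and -0.93, and their groups overlapped. The 3 Dof genes of the clock list with an unadjusted p under 0.05 had negative differences, and none passed with plate as a block. CDF1 (AT5G62430) had signals of 198, 275, 231, 304 and 306 in flight and 398, 366, 326, 340.4 and 429 in ground control, without overlap, a difference of -0.51 (standard error 0.16), adjusted p = 0.2. CDF3 differed by -0.74 (standard error 0.21) and AT1G69570, a further Dof gene, by -0.62 (standard error 0.15), and the difference of CDF3 was 0.02 on plate 2.

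Touch and rapid wound genes had the largest median of the pathway lists, and their difference varied between plates. Of 28 genes on the list, 26 had a mean signal of at least 100, all 26 had a positive difference, with a median of 1.04, and 12 had an unadjusted p under 0.05, 10 without the ground control array of plate 2. MYB15, PUB23, BAP1 and EXO, among others on the list, are genes the study called as changed in leaves, hypocotyls or roots of these plants. The shared direction of the list was thus not fully independent evidence. The median difference was 1.93 on plate 4, 0.47 on plate 6 and -0.34 on plate 2. The mean log2 signal of the 26 genes, relative to the 10 arrays, was -0.46, 0.68, 0.62, 0.72 and 0.72 on the flight arrays and -0.17, -1.37, -1.42, 0.48 and 0.19 on the ground control arrays. Both ground control arrays of plate 4 were thus far below the other 8. A test of the difference between the flight effect of plate 4 and that of plate 6 called 290 of the 13606 probe sets as larger on plate 4 (2.13%) and 88 as larger on plate 6 (0.647%). This test compared 4 groups of 2 arrays, each from 1 culture plate, so its spread was that between pools of 1 plate. It called 118 probe sets with limma's default settings and 0 with those settings over all probe sets. Of the 26 touch genes 21 were called, all larger on plate 4. Of the 290 probe sets, 157 were lowest on both ground control arrays of plate 4, and 78 were highest on both flight arrays of plate 4. Both counts followed in part from the selection of the 290 on these same arrays. The same shares over all 13606 probe sets were not counted, so no excess was inferred. Of the 54 probe sets that passed with plate as a block, 2 were among the 378, and of the 58 that passed the study's thresholds, 10 were. What set the ground control pools of plate 4 apart was not tested.

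**Figure D3:**
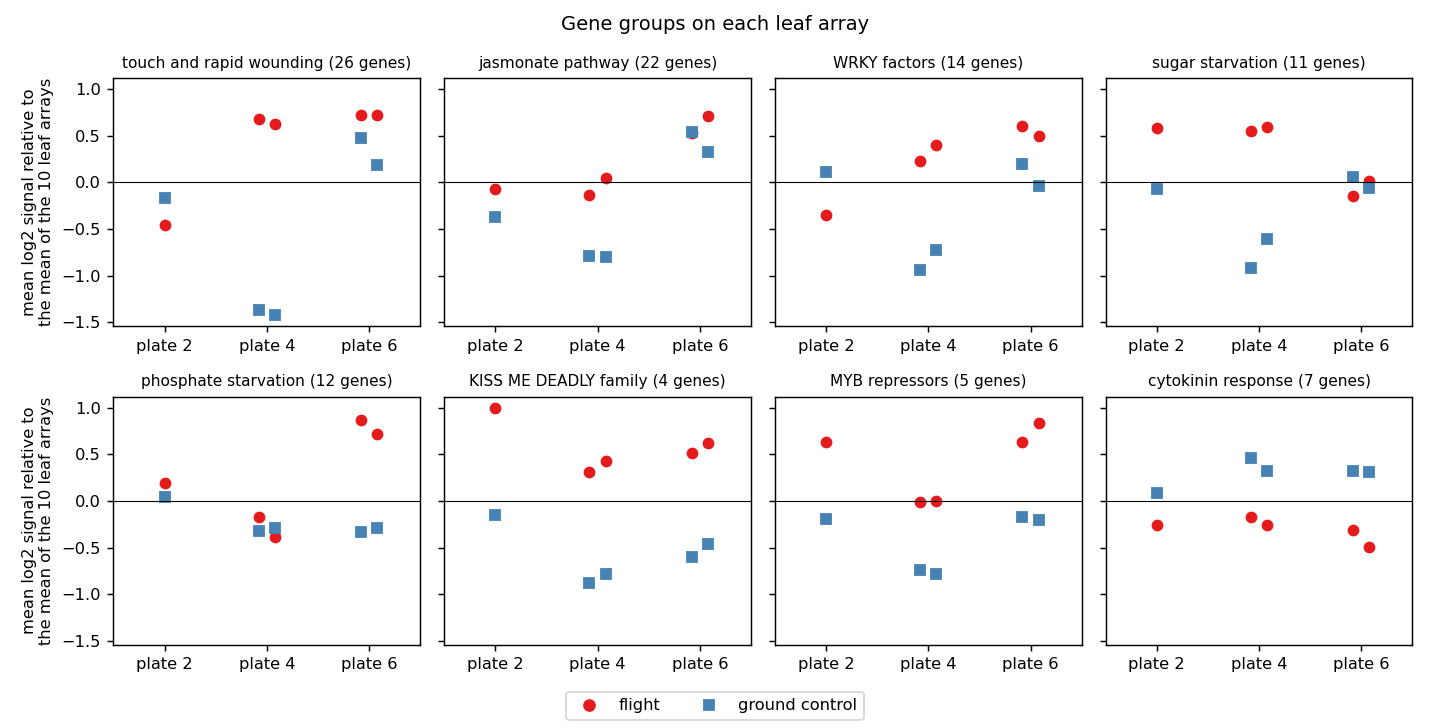
Mean log2 signal of 8 gene groups on each leaf array, relative to the mean of the 10 arrays, by plate (red circles flight, blue squares ground control). Of the 8, the KMD family was put together after its values had been seen. The KMD family, MYB repressors and cytokinin response genes were separated the same way on every plate, touch genes most on plate 4, where both ground control arrays were at -1.37 and -1.42, sugar starvation genes on plates 2 and 4, and phosphate starvation genes on plate 6.

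Single touch genes showed the same arrays. ERF104 (AT5G61600), an ethylene response factor, had signals of 1821, 3284, 3100, 2477 and 2540 in flight and 1527, 668, 543, 1915 and 1633 in ground control, a difference of 0.25, 2.40 and 0.50 on the 3 plates. ERF-1 (AT4G17500) had 1564, 1414, 1596, 1479 and 1497 in flight and 843, 397, 450.1, 1219 and 1126 in ground control. ERF-1 did not overlap between groups and differed between plates 4 and 6 (adjusted p = 0.00224). TCH4 (AT5G57560), a xyloglucan endotransglucosylase induced by touch, had 9160, 20250, 18840, 13410 and 13320 in flight and 14070, 6665, 6664, 16850 and 12640 in ground control. TCH3 (AT2G41100), a calmodulin-like touch gene, had 12110, 20340, 20280, 14700 and 14230 in flight and 16320, 7411, 8290, 21270 and 14820 in ground control. For both classic touch genes the ground control arrays of plate 4 were the lowest of all 10 and the flight arrays of plate 4 among the highest, while on plates 2 and 6 flight was lower. The calmodulin-like gene CML38 (AT1G76650) had 2069, 2839, 2132, 3528 and 3120 in flight and 959.8, 391, 454, 2207 and 2319 in ground control, higher in flight on each plate. AT4G27654, AT1G15010, AT1G33760, XTH18, EXL1 and AT2G41640 were chosen after the plate test, and of these only EXL1 was on the touch list. In that order they differed by 3.41, 3.06, 3.81, 3.23, 2.64 and 2.74 on plate 4, and by -1.10, -0.70, -0.52, -0.99, -1.57 and -0.80 on plate 2. RAV1, also on the touch list, was the 1 member that passed with plate as a block.

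**Figure D4:**
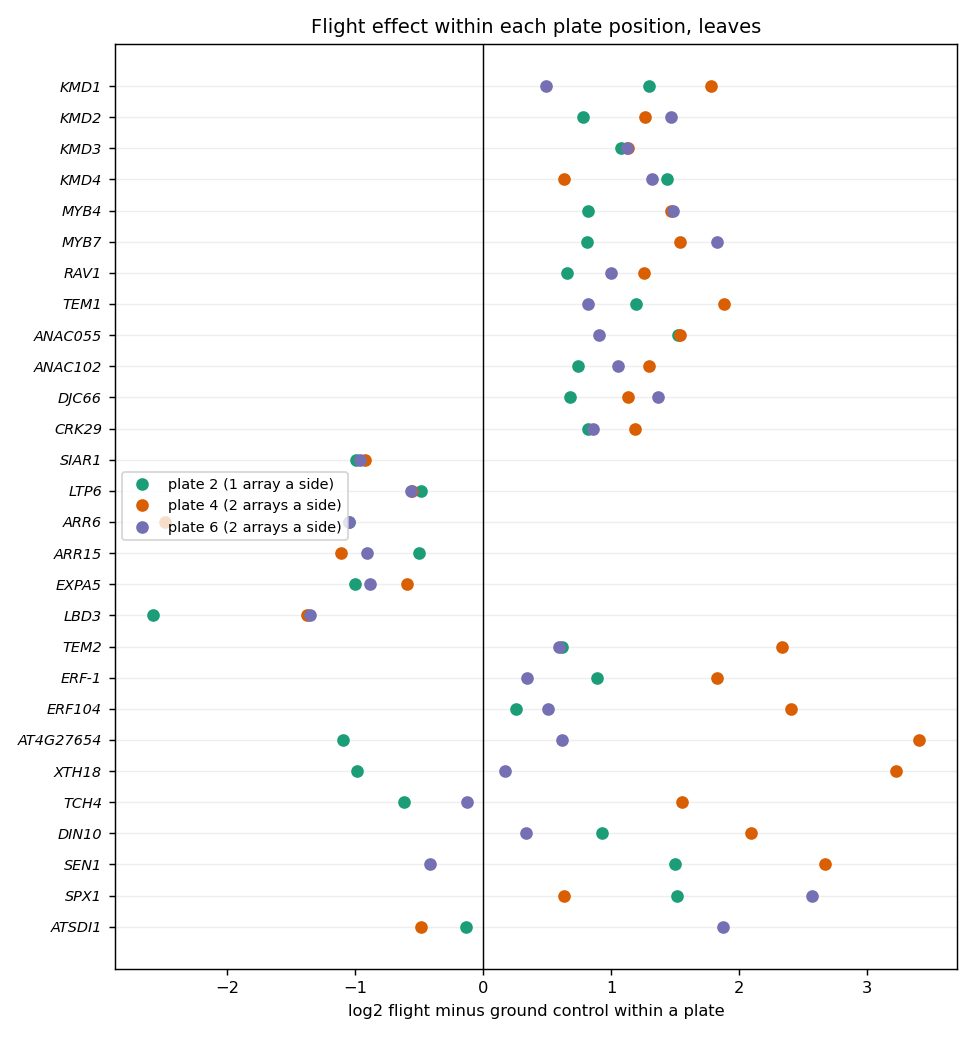
Log2 difference between flight and ground control leaves within plate 2 (1 array a side), plate 4 and plate 6 (2 arrays a side each) for 28 genes. KMD3, SIAR1 and LTP6 had nearly the same value on the 3 plates, while AT4G27654, XTH18, TCH4 and SEN1 changed sign between plates and SPX1 and ATSDI1 were highest on plate 6.

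WRKY factors, regulators of defence, and jasmonate genes had their largest differences on plate 4 too. Of 14 WRKY factors at a mean signal of at least 100, 13 were higher, with a median of 0.56 and 4 at an unadjusted p under 0.05, 3 without the ground control array of plate 2, but the median was -0.67 on plate 2 and 1.27 on plate 4. WRKY22 (AT4G01250) had 460.3, 660.2, 628, 809 and 726 in flight and 388, 219, 236, 505 and 434 in ground control, and was the 1 WRKY gene that passed with plate as a block (adjusted p = 0.04). WRKY40 (AT1G80840), a repressor in defence and abscisic acid responses, had 1250, 3757, 4188, 6228 and 7235 in flight and 2150, 698, 613, 5150 and 3739 in ground control, lower in flight on plate 2 and higher on the others. Of 22 jasmonate genes 18 were higher, with a median of 0.41 and 1 at an unadjusted p under 0.05 in each direction. Members of both lists, among them WRKY18, WRKY40, WRKY70, JAZ1, JAZ7, MYC2 and ORA59, are genes the study called as changed in organs of these plants. The directions of the 2 lists were thus not fully independent evidence. JAZ8 (AT1G30135), a repressor that jasmonate induces, had 429.5, 399, 413, 1390 and 2288 in flight and 260.0, 86.7, 74.9, 915 and 810.5 in ground control, with plate 6 high in both environments, and an adjusted p of 0.04 with plate as a block against an unadjusted p of 0.114 without it. JAZ7 (AT2G34600) differed by 0.97, 2.97 and 0.78, and ORA59, the factor of jasmonate and ethylene defence, by 1.34, 1.15 and 0.25. JAZ12 was the only jasmonate gene whose groups did not overlap, and it was lower in flight, by a log2 difference of -0.24 (standard error 0.10). Of 12 ethylene genes 11 were higher, with a median of 0.33, and of 14 salicylate and defence genes 11 were higher, with a median of 0.39 overall and -0.47 on plate 2. At an unadjusted p under 0.05, 2 ethylene genes were higher, 0 without the ground control array of plate 2. For the salicylate and defence genes the count was 1, and 3 without that array. ATL31 (AT5G27420), a ubiquitin ligase gene on the touch list, had 523, 950.0, 932, 1124 and 1005 in flight and 522, 224, 274, 678 and 484 in ground control, a log2 difference of 0.00 on plate 2.

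A run of 5 numbered neighbours, AT1G72890, AT1G72900, AT1G72920, AT1G72940 and AT1G72950, known as genes of Toll/interleukin-1 receptor domain proteins, had positive differences, and AT1G72890 and AT1G72940 passed with plate as a block. AT1G72890 was named by the rule and the other 4 were added after their values had been seen. AT1G72890 had signals of 231, 235, 189, 299 and 220.3 in flight and 112, 104, 95.2, 164 and 78.7 in ground control, a difference of 1.11 (standard error 0.21), adjusted p = 0.0453. AT1G72940 had 2114, 3084, 2732, 3194 and 2835 in flight and 1449, 925, 1185, 1824 and 1922 in ground control, adjusted p = 0.0154. The groups of these 2 genes did not overlap, and the plate differences of AT1G72890 were 1.05, 1.08 and 1.17. AT1G72900, AT1G72920 and AT1G72950 differed by 0.99 (standard error 0.26), 1.09 (standard error 0.33) and 0.92 (standard error 0.40), overlapped between groups and did not pass with plate as a block. AT1G72950 was lower in flight on plate 2, at -0.24, and the other 4 kept 1 direction on the 3 plates. Probes of near-identical neighbours can share signal, so these 5 values may not be independent.

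Sugar starvation genes were higher on plates 2 and 4. These genes are known to be induced when carbohydrate runs low. All 11 at a mean signal of at least 100 had a positive difference, with a median of 0.65, and 4 had an unadjusted p under 0.05, 5 without the ground control array of plate 2. The median was 0.91 on plate 2, 1.27 on plate 4 and -0.11 on plate 6, and 4 of the 11 differed between plates 4 and 6. DIN10 (AT5G20250), a raffinose synthase family gene, had signals of 5254, 5384, 6514, 3228 and 3274 in flight and 2758, 1372, 1413, 2596 and 2556 in ground control. TPS8 (AT1G70290), a trehalose-phosphate synthase family gene, had 2045, 1856, 2013, 1012 and 1079 in flight and 697, 646, 597, 483 and 1001 in ground control. Neither gene overlapped between groups, with adjusted p of 0.182 and 0.0672, and the difference of TPS8 was 1.55, 1.64 and 0.59 on the 3 plates. SEN1 (AT4G35770), a dark-inducible gene, had 1921, 1266, 1642, 507 and 608 in flight and 680.4, 183, 281, 866 and 631 in ground control, a difference of 2.67 on plate 4 and -0.41 on plate 6. BT2 and TPS11 had the same order, with 1.59 and 1.27 on plate 4 and -0.16 and -0.11 on plate 6. AT2G20670, named by the rule, had 1870, 1266, 1400, 584 and 704 in flight and 419, 264, 257, 348 and 517 in ground control, and differed by 2.16 and 2.35 on plates 2 and 4 and by 0.60 on plate 6. ASN1, an asparagine synthetase induced in the dark, differed by 0.92, 2.72 and -0.56 on the 3 plates.

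Phosphate starvation genes showed the reverse order of plates. Of 12 at a mean signal of at least 100, 11 were higher, with a median of 0.37, and 3 had an unadjusted p under 0.05, 4 without the ground control array of plate 2. The median was 1.04 on plate 6, 0.15 on plate 2 and 0.05 on plate 4, and 4 of the 12 had a larger effect on plate 6. SPX1 (AT5G20150), a sensor that restrains the phosphate starvation response, had signals of 1797, 1108, 733, 2771 and 2971 in flight and 628, 449, 752, 495 and 475 in ground control. GDPD1 (AT3G02040), a glycerophosphodiester phosphodiesterase that releases phosphate from lipids, had 733, 319, 535, 1339 and 973 in flight and 345, 165, 294, 295 and 223 in ground control. Both were highest on the flight arrays of plate 6, at 2.57 for SPX1 and 2.15 for GDPD1 within that plate, and both overlapped between groups. GDPD1 was on the list drawn from the study's leaf results, so its direction was no independent evidence either. GDPD2 (AT5G41080), added after its values had been seen, had 239.9, 249, 229, 268 and 347 in flight and 117, 60.0, 104, 216 and 147 in ground control, did not overlap and passed with plate as a block (adjusted p = 0.04). PAP17, an acid phosphatase, and PS2, a phosphatase induced by phosphate starvation, differed by 0.96 and 1.72 on plate 6 and by 0.24 and 0.32 on plate 4. ATSDI1, induced by sulphur deficiency and chosen after the plate test, had 753, 667, 673, 1048 and 1309 in flight and 826, 796, 1103, 324 and 315 in ground control, where both ground control arrays of plate 6 were the lowest.

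Photosynthesis genes had small differences. All 23 nuclear photosystem subunits had a negative difference, with a median of -0.20, but 1 had an unadjusted p under 0.05, none without the ground control array of plate 2, and the median was -0.04 on plate 4. Of 10 light-harvesting antenna genes 9 were lower, with a median of -0.20 and 0 at an unadjusted p under 0.05. The medians of 13 Calvin cycle genes and 13 chlorophyll synthesis genes were -0.03 and -0.03, with 0 of either at an unadjusted p under 0.05, and with quantile normalization the medians were -0.11 for the photosystem subunits, -0.08 for the antenna genes, -0.02 for chlorophyll synthesis and 0.09 for the Calvin cycle, where the sign turned. The core clock genes, which change severalfold over a day, were compared because they depend on the time of day at harvest. CCA1 had signals of 327, 453, 319, 399 and 422 in flight and 335, 467, 342, 346 and 312 in ground control, a difference of 0.09 (standard error 0.16). LHY had 528, 1041, 1026, 642 and 540.3 in flight and 829, 1173, 897, 609.6 and 589 in ground control, a difference of -0.14 (standard error 0.28). TOC1 had 339.5, 243, 315, 529.9 and 580.5 in flight and 314, 393, 377, 380.0 and 389.8 in ground control, a difference of 0.04 (standard error 0.24). The groups of all 3 overlapped, with LHY high on plate 4 in both environments and TOC1 high on the flight arrays of plate 6. Of 25 clock genes at a mean signal of at least 100, 3 had an unadjusted p under 0.05, all lower, and these were the Dof genes CDF1, CDF3 and AT1G69570.

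The remaining gene lists gave few genes past an unadjusted p of 0.05. Among xyloglucan endotransglucosylases, which remodel the cell wall, XTH30 was higher (0.65) and XTH28 and XTH31 were lower (-0.35 and -0.78), of 19 with a median of 0.21, and 6 of the 19 had a larger effect on plate 4 than on plate 6. Of 8 heat shock genes with a median of 0.34, MBF1C was higher (0.65). Of 16 abscisic acid and drought genes with a median of 0.20, NAP, RD26 and the receptor gene PYL5 were higher (0.96, 0.74 and 0.71) and CYP707A1, an enzyme that breaks down the hormone, was lower (-0.74). The differences of RD26 were -0.69, 1.25 and 0.93 on the 3 plates, and of the 4 genes NAP passed with plate as a block. Of 23 auxin genes, ARL was higher and IAA6 lower (-0.67), with a median of -0.07. The glutathione transferases GSTU7 and GSTF8 were higher (0.49 and 0.44) of 15, and MYB51, a regulator of indole glucosinolates, was higher (0.91) of 17 glucosinolate genes. Lower genes were SAPX, an ascorbate peroxidase (-0.48, 1 of 14 oxygen scavenging genes), KCS1, a wax synthesis enzyme (-0.66, 1 of 19 cuticle genes), ADH1, alcohol dehydrogenase (-0.53, 1 of 11 hypoxia genes), and PIF4, a light-responsive growth factor (-0.32, 1 of 17 light signalling genes). None of these passed with plate as a block except NAP. Without the ground control array of plate 2, 0 xyloglucan endotransglucosylases and 0 light signalling genes were lower at an unadjusted p under 0.05, 1 glutathione transferase and 2 abscisic acid and drought genes were higher, and 1 glucosinolate gene was lower. ADH1 was 0.10 on plate 2, and the reporter line with its promoter was present in both groups. COR15B, a cold-induced chloroplast protection gene and the 1 of 12 cold genes past that p, had signals of 480.0, 268, 579.5, 587 and 373 in flight and 666, 659, 603, 679.8 and 702 in ground control. The actin depolymerizing factor gene ADF1, the 1 of 17 actin and microtubule genes, had 6008, 6329, 6347, 5071 and 5742 in flight and 7943, 8101, 6466, 7552 and 7349 in ground control. Neither COR15B nor ADF1 overlapped between groups, and both were lower in flight. The 23 cell cycle genes, 13 aquaporins, 11 cellulose synthesis genes, 9 gibberellin genes, 6 brassinosteroid genes, 6 senescence genes and 8 reference genes had 0 past an unadjusted p of 0.05, with 1 senescence gene past it without the ground control array of plate 2. The 4 shoot apex markers and 6 epidermis and vein markers at a mean signal of at least 100 also had 0, while the 1 root marker at that signal, PYK10, was past that p, and not without the ground control array of plate 2.

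Leaves, hypocotyls and roots had been cut from plants grown on the same plates, so the 3 comparisons shared culture plates. Of the 49 probe sets higher in flight leaves at the study's thresholds, 48 had a positive difference in hypocotyls, 25 of them at an unadjusted p under 0.05, and 40 in roots, 22 of them at an unadjusted p under 0.05. Of all 13606 probe sets, 47.2% had a positive difference in hypocotyls and 50.3% in roots, and 2.95% and 4.67% were higher at that p. None of the 49 was lower in either organ at that level. The flight effect of 5 of the 49 differed between leaves and hypocotyls at an unadjusted p under 0.05. That of 13 differed between leaves and roots. Among all 13606 probe sets the shares were 4.6% and 4.9%. These tests reused the leaf arrays on which the 49 had been selected for a large leaf effect. Selection alone could raise such counts, so the shares of unselected probe sets were no fair background and no excess was inferred. Of the 9 lower in leaves, 5 had the same sign in hypocotyls and 6 in roots, 0 of them at an unadjusted p under 0.05. The flight effect of 5 of the 9 differed between leaves and hypocotyls at that p, and that of 6 between leaves and roots, with the same limit from selection. The difference of the flight effect between leaves and roots, tested directly over 20 arrays, passed an adjusted p of 0.05 for 1 of 22746 probe sets (0.0044%), ABCG16. The ABCG16 signal was at or under 46.3 on all leaf arrays, and under limma's trend and robust settings the count was 0. Leaves and hypocotyls differed for 0 probe sets (0.0%) in limma's default fit, where the smallest adjusted p was 0.228 and 1456 had an unadjusted p under 0.05. They differed for 1 when only probe sets with a mean signal of at least 100 over the 20 arrays of both organs were fitted.

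The KMD genes differed by 1.31, 0.96, 1.47 and 1.09 in hypocotyls and by 0.51, 0.80, 0.65 and 0.62 in roots, each in the order KMD1 to KMD4. MYB7 had means of 1650 in flight and 628 in ground control hypocotyls and differed by 1.22 in roots, and RAV1 differed by 0.77 in hypocotyls and 1.25 in roots. The direction of these genes was thus the same in all 3 organs. The receptor kinase gene CRK29 differed by 0.05 in hypocotyls and -0.06 in roots, and its leaf effect exceeded these with unadjusted p of 0.00307 and 0.00836 and adjusted p of 0.644 and 0.72. ARR6 differed by -0.36 in hypocotyls and -0.26 in roots, with unadjusted p of 0.00248 and 0.00265 for the difference from leaves, and ARR15 was higher in flight roots (0.58). None of these differences passed after adjustment, and CRK29 and ARR6 had been named for their leaf effect on the same leaf arrays. DIN10 differed by 1.14 in hypocotyls and -0.17 in roots, and AT2G20670 by 1.11 and -0.06. TOP3A and LSH9, lower in leaves, differed by 0.27 and 0.01 in roots. The touch genes had the plate order of leaves in every organ. Their mean difference was 2.04 on plate 4, 0.39 on plate 6 and -0.29 on plate 2 in leaves, 1.83, 0.40 and -0.35 in hypocotyls, and 2.17, 1.43 and 0.72 in roots. The ground control pools of plate 4 were the lowest in all 3 organs.

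**Figure D5:**
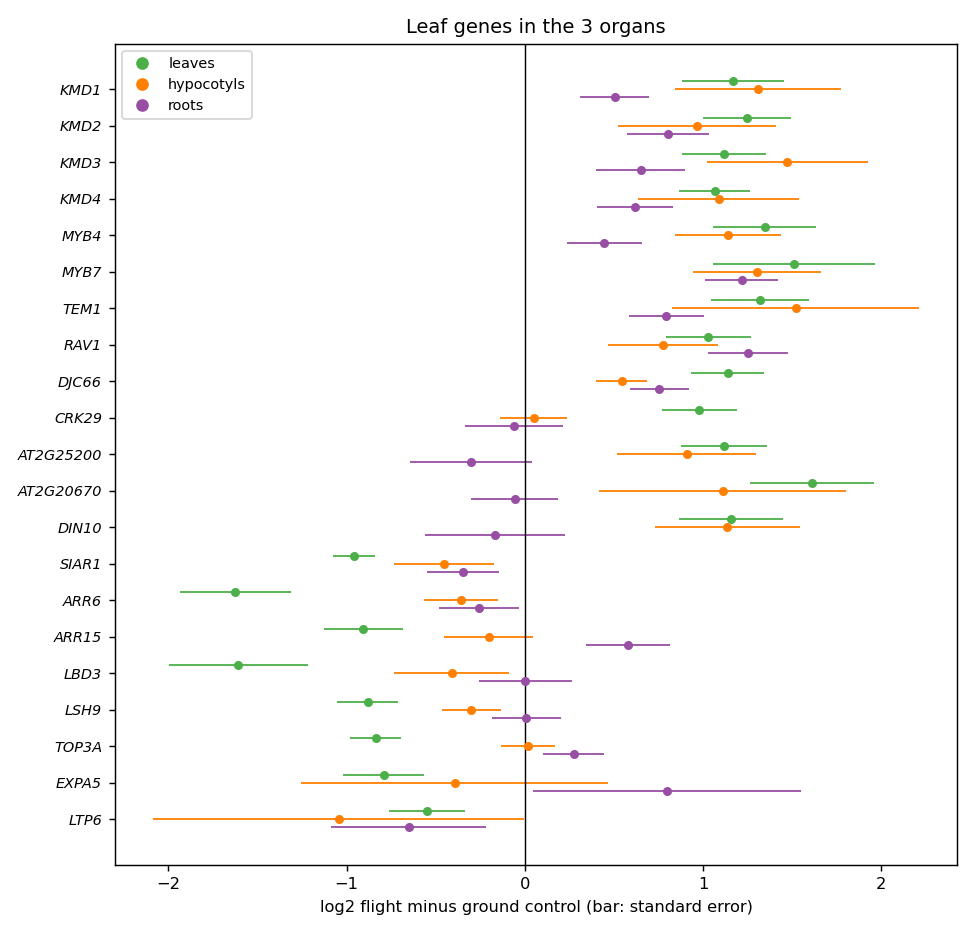
Log2 difference between flight and ground control, with its standard error, in leaves, hypocotyls and roots for 21 genes named in leaves. The KMD genes, MYB7, TEM1 and RAV1 were above 0 in all 3 organs, while CRK29 was at 0.05 in hypocotyls and -0.06 in roots.

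Below a mean signal of 100, 182 probe sets passed the study's thresholds as lower and 15 as higher. Without the ground control array of plate 2, 111 of the 182 still passed. The gene just above that limit among those that passed was AT1G20520, at a mean signal of 101.1, and just below it TRM24, at 94.3. The 3 lower probe sets of low signal with the smallest p were AT3G30730, AT3G43760 and GA2OX1 (AT1G78440), a gibberellin-inactivating enzyme. GA2OX1 had signals of 11.9, 7.66, 6.35, 4.12 and 4.40 in flight and 112, 34.1, 66.1, 39.8 and 29.1 in ground control, and AT3G30730 had 1.44, 1.83, 2.78, 0.72 and 3.82 in flight and 39.6, 33.2, 40.2, 40.1 and 9.36 in ground control. ABCG16 (AT3G55090), a transporter gene, had 3.32, 1.98, 1.38, 6.14 and 1.45 in flight and 28.5, 46.3, 11.6, 19.3 and 29.0 in ground control. The groups of these genes did not overlap, and all their signals on flight arrays were at or under 11.9, so the size of their fold changes was not compared with those of the genes above.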

How the data were processed

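Total RNA of pooled plants was hybridised to Affymetrix ATH1 arrays. Per the labels, the authors computed MAS5 signals in Affymetrix Expression Console, and the deposited values were linear intensity values. The versions are not given in the sources used here. The 64 control probe sets were left out, and the 22746 others were taken to log2 without an offset. Groups came from the sample titles. Flight and ground control leaves were compared with limma 3.58.1 in R 4.3.3 (default moderated test, Benjamini-Hochberg adjustment over all probe sets). A second fit took plate as a block, with trend and robust settings, over the 13606 probe sets with a mean signal of at least 100. The study's thresholds were an unadjusted p under 0.01 and 1.9-fold. Genes were named from probe sets of 1 locus, of which there were 21447. The rule took the 15 higher and 10 lower with the smallest p past these thresholds (filled with non-overlapping genes where fewer passed), up to 4 members of each of 41 gene lists, members with non-overlapping groups and 3 low-signal examples. Other genes were chosen after their values had been seen. The lists, the rule and the fit with plate were chosen with earlier results of these data known. The default fit and the fit with plate were tested on simulated data. The simulated plate shifts were the same in flight and ground control. The simulation therefore could not check calls that depend on how plates vary within an environment. The number of arrays limits the precision. Alternatives were quantile normalization, 75th percentile scaling, an offset of 32, signal minimums, other fits, the methods' t-test on the same values, and leaving out each array in turn.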

Additional observations from a re-analysis of the deposited data

Results flagged for a closer look

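Of 214 groups of 5 arrays tested for a gene named in the text or in the lists, 10 held a single array whose distance from the nearest other array passed Dixon's critical value, and chance gives about 1 in 20. TPR12 was 91.0 on the second ground control array of plate 6, against 164 to 204 on the others of its group, and CYP71B37 was 70.7 on the same array. TOP3A was 65.3 on the second flight array of plate 4, and ARR15 was 189 on the first. The flight array of plate 2 was the separate one for 4 genes, with 395 for EXPB3, 523 for ATL31, 390 for XTH18 and 339 for AT2G41640. CCA1 was 467 on the first ground control array of plate 4, and TOC1 was 314 on the ground control array of plate 2. The flight effect differed between leaves and roots for ABCG16, by a log2 difference of -4.70 with an adjusted p of 0.0166 from limma, where all leaf signals were at or under 46.3.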

How the results depend on the processing

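For the 0 past an adjusted p of 0.05 in leaves, the count was 5 with trend and robust settings, 1 with plate as a fixed block, 21 with all 30 organ arrays in 1 fit, 1 at a mean signal of at least 100 alone, 1 with that minimum and trend and robust settings, 14 with that minimum and plate as a block, 54 with all of these, 1 with plate 2 left out, and 0 to 1 without single arrays. The 49 higher at the study's thresholds were 14 with plate means as samples and 25 to 75 without single arrays. The 9 lower were 4 with quantile normalization, 5 with an offset of 32, 15 with trend and robust settings, 15 with plate as a fixed block, 5 with plate means, 17 with all organ arrays, 32 at a minimum of 50, 1 at 200, 191 with none, and 5 to 15 without single arrays. Higher and lower calls over all probe sets were 64 and 191, and 119 and 88 with quantile normalization. The 1 that differed from roots was 0 with trend and robust settings, with quantile normalization and at a minimum of 100. The 0 that differed from hypocotyls were 1 at that minimum. For both organs this minimum was a mean over the 20 arrays compared. The 54 with plate as a block were 20 to 91 without single arrays, 91 without plate 2, 14 with default settings, 1 with no plate block, 0 with plate means as samples, 1 with plate within environment as a random block in place of the fixed one (both chosen after seeing the data), and 1 over all probe sets with default settings. The 378 that differed between plates 4 and 6 were 118 with default settings, 0 with default settings over all probe sets, and 0 with quantile normalization added to these. The cause of these shifts was not tested. The replicate numbers do not pair the samples: same-numbered arrays had deviations correlated at -0.183 to 0.192, over 0.1 for 3 of 5, and 2 of 5 matched their own number best. With the number as a replicate block, 0 passed the adjusted threshold, 45 were higher and 10 lower. Of 2247 values over 107 genes and 21 settings, 1970 kept their direction and their side of the study's p threshold, 220 lost it, 53 gained it and 4 turned sign. LHY ranged from -0.27 to 0.01 without single arrays and turned to 0.01 without the first ground control array of plate 4. TOC1 ranged from -0.11 to 0.21 and turned to -0.08 and -0.11 without either flight array of plate 6 and to -0.02 without the ground control array of plate 2. Low signals limited the lower calls, most of which lay under a mean signal of 100.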
